A study of Mus musculus with 6 samples.

Results

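The enzymes of mitochondrial beta-oxidation and ketone body metabolism were followed in the liver of mice on a control or a carbohydrate-restricted diet. Probes of the 35 listed genes were matched by name in the array's own annotation, and they number 46. The list itself was chosen with earlier results of these data known. A gene counted as measured when at least 1 of its probes was well above background on every measured array of at least 1 diet. On that basis 34 of the 35 were measured, among 19616 features tested. The exception, Acsl6, an acyl-CoA synthetase best known from brain, had both of its probes near background on all 6 arrays.

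All 6 animals were male C57BL/6 mice, 5 weeks old when the diets began, and there were 3 on each diet and 1 single-colour array for each mouse. The control mice ate a control diet from LabDiet, and the restricted mice a formula that the sample labels call moderate restricted carbohydrate diet. The sources differ on a supplement: the series title adds a mixture of phytochemicals to that formula, while the sample titles call both diets supplemented and name no supplement. If the restricted mice alone received it, a part played by the carbohydrate and one played by the supplement cannot be told apart. Feeding before the injection lasted 1 week and the diet 5 weeks by the sample labels, and 2 weeks and 4 weeks by the series text. Every mouse of both diets had also received a transposon vector carrying human HrasG12V, shp53 and GFP4 by hydrodynamic injection into the tail vein, which delivers DNA mainly to hepatocytes, and the RNA came from liver outside the tumors. No uninjected mouse was analysed here, so the values describe livers of a cancer model on either diet.

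In beta-oxidation, a fatty acid is joined to coenzyme A by an acyl-CoA synthetase, carried into the mitochondrion through the carnitine palmitoyltransferases, and shortened in repeated cycles of dehydrogenation, hydration, dehydrogenation and thiolysis. The electrons of the first dehydrogenation pass through the electron transfer flavoprotein to the respiratory chain. Liver turns much of the acetyl-CoA so formed into ketone bodies for other organs, and hepatocytes are known for lacking the enzyme that would let them burn ketone bodies themselves. Many of these genes are known targets of the nuclear receptor PPAR-alpha.

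The promoter windows of the member genes were read from RefSeq (GRCm38.p6), each with 250 bases before and 50 bases after the start, and 30 of the 35 genes had an entry. Hadha and Hadhb, the genes of both subunits of the mitochondrial trifunctional protein, lie head to head on chromosome 5 with 272 bases between their starts and are shown because their signals differed between the diets in the same direction. The capitals mark the GC box, GGGCGG, which occurs here 2 times. The third line is the stretch of the Etfdh promoter that holds the palindromic recognition sequence of the factor NRF1, in capitals. The Oxct1 sequence is shown because its signal fell; it holds none of the 6 motifs searched.
Hadha and Hadhb, chr5:30155003-30155252, plus strand, toward Hadhb: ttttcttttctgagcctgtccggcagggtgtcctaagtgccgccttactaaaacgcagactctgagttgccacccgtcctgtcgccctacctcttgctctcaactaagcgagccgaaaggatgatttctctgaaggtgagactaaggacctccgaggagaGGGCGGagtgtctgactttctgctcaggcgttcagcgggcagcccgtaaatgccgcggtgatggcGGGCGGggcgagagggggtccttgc
Oxct1, chr15:4026178-4026427, plus strand, the 250 bases before the start: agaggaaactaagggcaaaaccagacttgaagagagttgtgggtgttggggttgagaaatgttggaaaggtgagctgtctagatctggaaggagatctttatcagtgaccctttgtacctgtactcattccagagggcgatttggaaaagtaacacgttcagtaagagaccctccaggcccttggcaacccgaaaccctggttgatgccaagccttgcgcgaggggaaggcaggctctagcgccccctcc
Etfdh, chr3:79628866-79628915, minus strand: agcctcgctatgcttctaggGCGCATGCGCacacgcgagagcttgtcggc

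The 6 motifs were searched as exact letters on both strands over the whole window. The GC box, GGGCGG, stood in the promoters of 19 of the 30 member genes, or 63.3%, against 38.2% of 27025 genes in the same table. Those 27025 genes, the background for every motif here, were taken whether or not they were measured on the arrays. The 19 include Acsl3 and Acsl4, which did not pass, and the unmeasured Acsl6. CCAAT was found in 15 members, or 50%, against 41.1% of all genes. AGGTCA, the half-site of many nuclear receptors, was found in Acadm, Acadvl, Acsl6, Acsm1, Cpt1a and Echs1, a share of 20% against 18.1%. The NRF1 sequence was in Acad10 and Etfdh, 6.67% against 1.07%. TCAAGGTCA, the sequence of the estrogen-related receptors, which contains AGGTCA, was in Acsl6 alone, 3.33% against 0.466%. The direct repeat bound by PPAR-alpha and its partner, searched as a pair of AGGNCA with 1 base between, was in none of the 30, against 0.451% of all genes. At least 1 of the 6 motifs was present, in any window of the gene, for 28 of the 30 members, or 93.3%, against 71.1% of all genes. The 28 were the 25 genes with an entry that rose, the 2 with an entry that did not pass, and the unmeasured Acsl6. The exceptions were Acsm2 and Oxct1, which fell. A link between motifs and direction was not tested. It would rest on these 2 genes and on motifs chosen with earlier results of these data known. Acad9 and Decr1, which rose, and Cpt1b, Acaa2 and Acat1, which did not pass, had no entry and were not searched. These are matches of letters in short windows and say nothing of binding.

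Most genes of the pathway had a higher signal on the restricted diet. Of the 34 measured genes, 27 rose and 2 fell at an adjusted p under 0.05 in limma, with Benjamini-Hochberg adjustment over all 19616 features, and 5 did not pass. The background of that comparison was large: 27.5% of all features passed, 14.6% higher and 12.8% lower. Signals are given as log2 of the array signal relative to the 75th percentile of the same array, so that a difference of 1 is a doubling, and levels of different probes are not comparable. The median difference over the measured members was 1.11, against 0.12 over all features. On the 33 genes measured on all 6 arrays, the highest and lowest mice of the diets did not overlap for 28 that were higher and 2 that were lower on the restricted diet, where 44.8% of features with all 6 values did not overlap and 26.1% did so with the restricted diet higher. The change was at least 2-fold for 20 of the genes that rose and for both that fell. How many of all features were called at that size was not counted, so no background stands beside these counts. For Acsm2, 1 of the 2 that fell, the difference shrank to -0.40 with normexp background correction. Mouse by mouse, the median over members, with each gene set to its control mean, was -0.06, 0.11 and -0.05 in control mice 1, 2 and 3, and 1.01, 1.17 and 1.05 in restricted mice 1, 2 and 3. The restricted mice thus all stood well above the control mice, and no single mouse set the median.

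**Figure D1:**
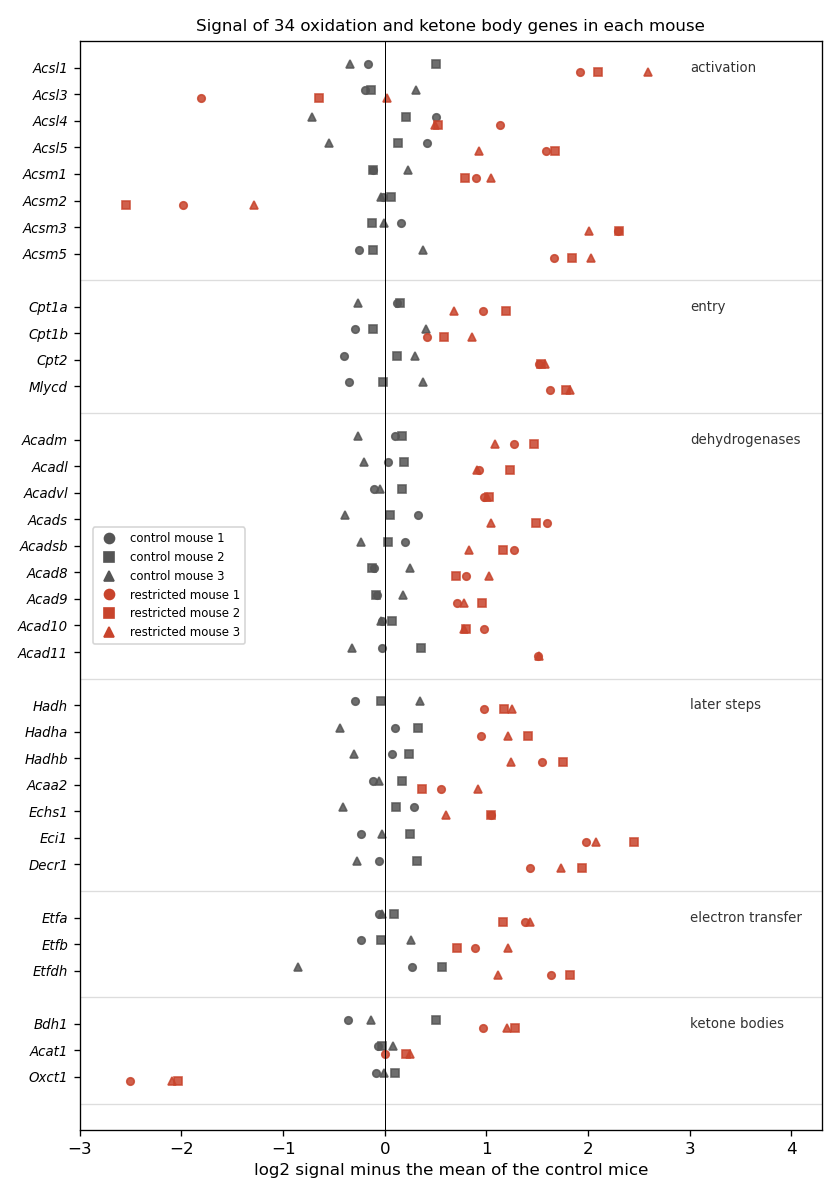
Signal of the 34 measured genes in each of the 6 mice, as log2 signal minus the mean of the control mice, ordered by step of the pathway. Grey symbols are control mice and red symbols restricted mice, with circles, squares and triangles for mice 1, 2 and 3; the restricted mice lie to the right of the control mice for most genes and to the left for Acsm2 and Oxct1, and Acad11 has no value in restricted mouse 2.

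The arrays lay on 2 slides, and the slide was not balanced over the diets. Slide 1 held the 3 control mice and restricted mouse 1, and slide 2 held restricted mice 2 and 3. With slide as a block in limma, 15 members rose and 3 fell at an adjusted p under 0.05, where 5.71% of all features rose. Within slide 1 alone, with restricted mouse 1 assumed to vary as the control mice did, 6 rose and 3 fell, against 3.34% of features higher. The sizes moved less than the counts: the median difference over members was 1.01 in both fits. Those fits give the same differences by construction, because slide 2 held no control mouse. Both rest on restricted mouse 1 against the 3 control mice. Restricted mice 2 and 3 of slide 2 against the control mice gave a median of 1.13 and 24 genes that rose, against 10.7% of features. That comparison uses the same arrays as leaving out restricted mouse 1. Slide and diet cannot be told apart for restricted mice 2 and 3.

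**Figure D2:**
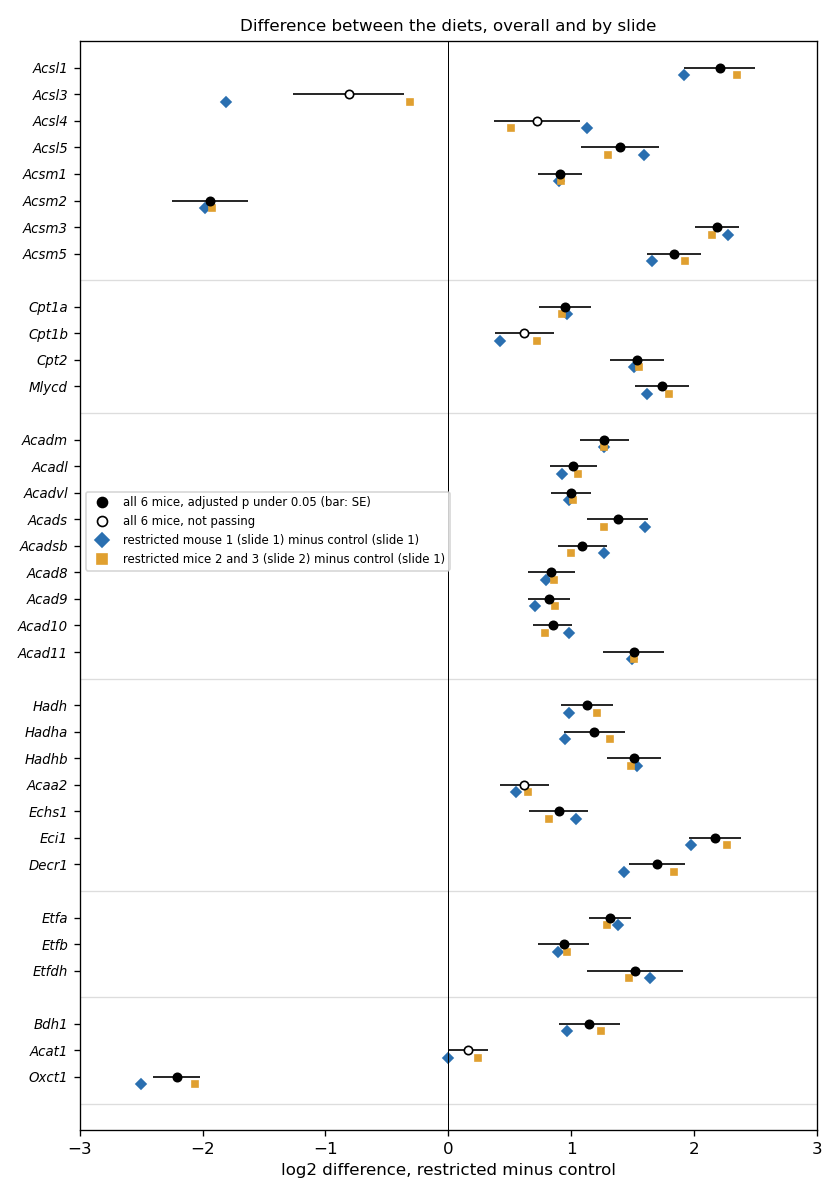
Difference in log2 signal, restricted minus control, for each measured gene over all 6 mice (circles, filled where the adjusted p was under 0.05, with bars of 1 SE), for restricted mouse 1 on slide 1 (diamonds) and for restricted mice 2 and 3 on slide 2 (squares), each against the 3 control mice on slide 1. The diamonds and squares lie on the same side of 0 for nearly every gene, with Acat1 at 0 on slide 1, and are farthest apart for Acsl3.

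Cell type markers moved between the diets as well. All 12 markers of macrophages and Kupffer cells fell, by a median log2 difference of -2.32. Their summed signal, in multiples of the array's 75th percentile, was 245 to 325 in control and 41 to 59.4 in restricted mice. Among the Kupffer cell markers, the difference was -2.24 for Clec4f (adjusted p = 0.000778) and -2.78 for Vsig4 (adjusted p = 0.000675). Of 8 neutrophil markers 5 fell and 1 rose. Their summed signal was 103, 69 and 30 in control mice 1, 2 and 3 and 25.9, 4.84 and 5.2 in restricted mice 1, 2 and 3. Mpo and Ngp, which were among those that fell, were well above background on only 4 of 6 arrays. Of 10 stellate cell and fibroblast markers 6 fell, with summed signals of 114 to 149 against 46.5 to 76. Bile duct markers fell at 3 of 6, Krt7, Epcam and Spp1, with summed signals of 4.45 to 5.42 against 0.852 to 1.82. Krt7 and Epcam were not well above background on the restricted diet, and Spp1 made up most of the sum. Cftr differed by 0.29 (limma adjusted p = 0.649). Lymphocyte markers fell at 2 of 7 measured, with summed signals of 30.9 to 48.5 against 27.5 to 39. Of 9 measured liver endothelial markers 4 rose and none fell, with summed signals of 22.9 to 34.9 against 39.2 to 52.7. Oit3 rose by 2.08 (limma adjusted p = 0.003) and Clec4g by 1.86 (limma adjusted p = 0.00319). The other 5 did not pass, among them Cdh5 at -0.73 and Stab2 at -0.20 (limma adjusted p = 0.12 and 0.417). The 12 hepatocyte markers summed to 1040 to 1490 in control and 1370 to 1810 in restricted mice, and 2 of them rose. Alb, Ttr, Apoc3, Ass1, Cyp2e1 and Serpina1a were saturated on all 6 arrays and could show no change. These saturated genes made up most of the sum in every mouse, so the sums are not read as a change. In whole liver, fewer cells of a type and less RNA per cell cannot be told apart, and the part of these shifts in the differences of the oxidation genes was not tested. Features saturated on all arrays, 109 in number, had a median difference of 0.34. Their signals, at the ceiling of the scan, were divided by a 75th percentile of 356.9 to 573.6 in control and 287.4 to 425.2 in restricted mice.

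Activation of fatty acids split by gene. Of 8 measured acyl-CoA synthetases 5 rose, 1 fell and 2 did not pass, with a median difference of 1.16. Acsl1, the main long-chain acyl-CoA synthetase of liver, measured 4.84, 5.51 and 4.67 in control mice 1, 2 and 3 and 6.93, 7.11 and 7.60 in restricted mice 1, 2 and 3. Every restricted mouse was above every control mouse, the spot was saturated in restricted mouse 2, and the difference was 2.21 ± 0.29 (SE, n = 3 per diet; limma adjusted p = 0.00206), or 4.61-fold. A second, dimmer probe of Acsl1 gave 2.25. Acsl5, a long-chain synthetase of liver and intestine, measured 2.96, 2.67 and 1.99 in control and 4.13, 4.21 and 3.47 in restricted mice. The diets did not overlap, and the difference was 1.40 ± 0.32 (SE; limma adjusted p = 0.0176). That call was lost without restricted mouse 1 (adjusted p = 0.0528), without restricted mouse 2 (adjusted p = 0.0645) and with slide as a block (adjusted p = 0.0717).

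Acsl3 and Acsl4 did not pass the test. Acsl3, which is found on the endoplasmic reticulum and lipid droplets, measured -0.52, -0.47 and -0.02 in control and -2.14, -0.98 and -0.31 in restricted mice. The diets overlapped and the restricted mice spread widely, so the difference of -0.81 had a 95% interval of -1.86 to 0.24 (limma adjusted p = 0.223). It was -1.81 in restricted mouse 1 on slide 1 (adjusted p = 0.0227 with slide as a block) and -0.31 in the restricted mice of slide 2, where slide and spread between mice cannot be told apart. Acsl4, which prefers arachidonic acid, measured 2.80, 2.51 and 1.58 in control and 3.43, 2.82 and 2.79 in restricted mice. Its difference was 0.72, with an interval of -0.11 to 1.55 (limma adjusted p = 0.175), and the lowest restricted mouse lay just below the highest control mouse.

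The medium-chain synthetases of the Acsm family, which are neighbours on chromosome 7, moved in opposite directions. Their probes lie at chr7:126686414-126686473 for Acsm5, chr7:126739631-126739690 for Acsm2, chr7:126805969-126806028 for Acsm1 and chr7:126928021-126928080 for Acsm3 in the mm9 build of the array files. Acsm3 measured 1.43, 1.14 and 1.26 in control and 3.56, 3.57 and 3.28 in restricted mice, a narrow spread on both diets. The difference was 2.19 ± 0.18 (SE; limma adjusted p = 0.000443), or 4.57-fold, and a second probe gave 2.26. Acsm5 measured 0.67, 0.80 and 1.30 in control and 2.58, 2.76 and 2.95 in restricted mice, a difference of 1.84 ± 0.22 (limma adjusted p = 0.00155). Acsm1 rose less, by 0.91 ± 0.18 (limma adjusted p = 0.0106), with 0.95 on its second probe, and lost its call with slide as a block (0.90, adjusted p = 0.0815) and with quantile normalization (0.59, adjusted p = 0.0559). Acsm2, which lies between Acsm5 and Acsm1, went the other way. It measured -3.06, -2.98 and -3.08 in control and -5.02, -5.59 and -4.33 in restricted mice, and the difference was -1.94 ± 0.31 (limma adjusted p = 0.0049). Its signal was dim, well above background on 5 of 6 arrays and not in restricted mouse 2, and with normexp background correction the difference shrank to -0.40 (adjusted p = 0.164). Members of this family are close in sequence, and how far the probes tell them apart was not tested.

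Entry into the mitochondrion was higher at 3 of its 4 genes, with a median difference of 1.25. Cpt1a, the liver form of the outer carnitine palmitoyltransferase and the rate-setting step of entry, measured 3.57, 3.60 and 3.19 in control and 4.42, 4.64 and 4.13 in restricted mice. The restricted mice lay above the control mice without overlap, by 0.95 ± 0.21 (SE; limma adjusted p = 0.0164), or 1.93-fold, and a second probe gave 0.71. The call was lost without restricted mouse 2, where the difference was 0.82 (adjusted p = 0.0652), and with slide as a block (0.97, adjusted p = 0.099). Cpt2, the inner membrane partner, measured 3.57, 4.09 and 4.27 in control and 5.49, 5.51 and 5.55 in restricted mice. The restricted mice nearly coincided, and the difference was 1.54 ± 0.22 (limma adjusted p = 0.00294). A much dimmer second probe of Cpt2 gave 1.56 but did not pass (adjusted p = 0.0577). Mlycd degrades malonyl-CoA, the inhibitor of carnitine palmitoyltransferase 1, and measured 3.22, 3.55 and 3.95 in control and 5.19, 5.35 and 5.39 in restricted mice. Its difference of 1.74 ± 0.22 (limma adjusted p = 0.00193) was 3.33-fold.

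Cpt1b, the muscle form, was dim and did not pass on its brightest probe. It measured -2.86, -2.69 and -2.16 in control and -2.15, -1.99 and -1.71 in restricted mice, which did not overlap although the closest mice of the diets were nearly level. The difference was 0.62, with a 95% interval of 0.06 to 1.18 before adjustment for the number of features (limma adjusted p = 0.0965). A second probe gave 0.71 and passed (adjusted p = 0.0266). Of 8 muscle markers, 7 were not well above background on either diet, and the eighth, Myh6, had a difference of 0.38 (limma adjusted p = 0.248).

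The acyl-CoA dehydrogenases, which take the first pair of hydrogens from the chain, rose as a group: all 9 passed, with differences from 0.82 to 1.51 and a median of 1.02. Acadm, the medium-chain enzyme, measured 4.81, 4.88 and 4.45 in control and 5.98, 6.18 and 5.79 in restricted mice. All restricted mice were more than 2-fold above the mean of the control mice, and the difference was 1.27 ± 0.20 (SE; limma adjusted p = 0.00441). Acadvl, the very-long-chain enzyme of the inner membrane, measured 6.01, 6.29 and 6.07 in control and 7.10, 7.14 and 7.13 in restricted mice, and its spot was saturated in restricted mouse 2. The restricted mice were level with each other, with a difference of 1.00 ± 0.16 (limma adjusted p = 0.00496). Acads, the short-chain enzyme, measured 0.82, 0.54 and 0.10 in control and 2.09, 1.98 and 1.53 in restricted mice. In both diets mouse 3 was the lowest, and the diets did not overlap, with a difference of 1.38 (limma adjusted p = 0.00794).

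Acadl, the long-chain enzyme, rose by 1.02 (limma adjusted p = 0.00829), and without overlap, from 2.15 to 2.54 in control to 3.26 to 3.58 in restricted mice. The dehydrogenases of branched-chain amino acid breakdown rose too. Acadsb, which acts in isoleucine breakdown, rose by 1.09 (limma adjusted p = 0.00829), and Acad8, which acts in valine breakdown, by 0.84 (limma adjusted p = 0.0175). Acad9, also an assembly factor of respiratory complex I, rose by 0.82 (limma adjusted p = 0.0134). Acad10 rose by 0.85 ± 0.16 (limma adjusted p = 0.00833). Acad11 measured 4.06, 4.45 and 3.77 in control mice and 5.60 and 5.61 in restricted mice 1 and 3. Its spot in restricted mouse 2 was dropped as an outlier of the scan, so its difference of 1.51 ± 0.25 (limma adjusted p = 0.00834) rests on 5 arrays. The smallest differences of the group were the least firm. Acad8 lost its call without control mouse 1 (adjusted p = 0.0614), control mouse 2 (adjusted p = 0.069) or restricted mouse 3 (adjusted p = 0.0577), and Acad9 without control mouse 2 (adjusted p = 0.0558) or restricted mouse 2 (adjusted p = 0.0604). With slide as a block Acadl, Acad8 and Acad9 did not pass (adjusted p = 0.0807, 0.125 and 0.123).

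Later steps of the cycle and the auxiliary enzymes for unsaturated fatty acids rose at 6 of 7 genes, with a median difference of 1.19. The isomerase Eci1, listed on the array under its older name Dci, shifts double bonds of unsaturated chains into the position the cycle can use. It measured 3.58, 4.06 and 3.78 in control and 5.79, 6.26 and 5.89 in restricted mice, a wide gap beside a small spread. The difference was 2.17 ± 0.21 (SE; limma adjusted p = 0.000743), or 4.51-fold. Decr1, the reductase that works with it on polyunsaturated chains, measured 5.19, 5.57 and 4.98 in control and 6.68, 7.19 and 6.98 in restricted mice. The diets did not overlap, and the difference was 1.70 ± 0.23 (limma adjusted p = 0.00236), with 1.87 on a second probe.

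Hadhb, the thiolase subunit of the trifunctional protein, measured 3.74, 3.91 and 3.37 in control and 5.22, 5.42 and 4.91 in restricted mice, a difference of 1.51 ± 0.22 (limma adjusted p = 0.0034). Hadha, the subunit with the hydratase and dehydrogenase, measured 0.31, 0.54 and -0.23 in control and 1.16, 1.62 and 1.42 in restricted mice, a difference of 1.19 ± 0.25 (limma adjusted p = 0.0132). Both genes of the shared promoter printed above were thus higher in every restricted mouse, and control mouse 3 was the lowest for both. The call of Hadha was lost without restricted mouse 2 (adjusted p = 0.0524) and with slide as a block (0.95, adjusted p = 0.132), while Hadhb passed in all 19 alternatives with differences of 1.22 to 1.64. Hadh, the dehydrogenase for shorter chains, measured 4.47 to 5.11 in control and 5.74 to 6.01 in restricted mice, a difference of 1.13 (limma adjusted p = 0.00895; 0.98 and adjusted p = 0.0916 with slide as a block).

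Echs1, the hydratase for short chains, measured 4.41, 4.23 and 3.71 in control and 5.16, 5.16 and 4.72 in restricted mice. The restricted mice were higher by 0.90 ± 0.24 (SE; limma adjusted p = 0.0334), but the call was among the least firm. It was lost without control mouse 2 (adjusted p = 0.0781), control mouse 3 (adjusted p = 0.0561), restricted mouse 1 (adjusted p = 0.0896) or restricted mouse 2 (adjusted p = 0.111), and with slide as a block (adjusted p = 0.111). Acaa2, the thiolase that closes the cycle for shorter chains, was too bright for the scan. Its spot was saturated on 5 of 6 arrays, all but control mouse 3, at 6.82, 7.11 and 6.88 in control and 7.49, 7.31 and 7.86 in restricted mice. It did not pass (limma adjusted p = 0.0635), and no fold is given because the true levels of the saturated mice lie at or above these values.

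All 3 genes of electron transfer from the dehydrogenases to the respiratory chain rose, with a median difference of 1.32. Etfa, a subunit of the electron transfer flavoprotein, measured 5.11, 5.26 and 5.14 in control and 6.55, 6.33 and 6.60 in restricted mice. The control mice were nearly equal, and the difference was 1.32 ± 0.17 (SE; limma adjusted p = 0.00179), with 1.35 on a second probe. Etfb, the other subunit, measured 6.22, 6.41 and 6.71 in control and 7.34, 7.16 and 7.66 in restricted mice, and was saturated in restricted mice 1 and 2. Its difference of 0.94 ± 0.21 (limma adjusted p = 0.0179) lost its call without control mouse 1 (adjusted p = 0.0619), control mouse 2 (adjusted p = 0.063) or restricted mouse 3 (adjusted p = 0.0547), and with slide as a block (adjusted p = 0.127). Etfdh, which hands the electrons to ubiquinone, measured 3.71, 4.00 and 2.59 in control and 5.07, 5.26 and 4.55 in restricted mice. Mouse 3 was the lowest on both diets, and the difference was 1.52 ± 0.39 (limma adjusted p = 0.0276), the widest error among the genes that rose. It did not pass without control mouse 1 (adjusted p = 0.0543), restricted mouse 1 (adjusted p = 0.0715) or restricted mouse 2 (adjusted p = 0.0906), nor with slide as a block (adjusted p = 0.123).

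The ketone body genes of the set went 3 ways. Bdh1, which interconverts acetoacetate and beta-hydroxybutyrate, measured 3.80, 4.66 and 4.02 in control and 5.13, 5.44 and 5.36 in restricted mice. The restricted mice lay above all control mice, by 1.15 ± 0.25 (SE; limma adjusted p = 0.0162), and its other probes gave 1.24 and 1.12. The call was lost without control mouse 1 (adjusted p = 0.0517) or restricted mouse 2 (adjusted p = 0.0612) and with slide as a block (0.97, adjusted p = 0.144). Acat1, the mitochondrial acetoacetyl-CoA thiolase that serves both the making and the use of ketone bodies, measured 3.86, 3.90 and 4.01 in control and 3.93, 4.14 and 4.18 in restricted mice. The diets overlapped, and the difference of 0.16 had a 95% interval of -0.23 to 0.54 (limma adjusted p = 0.508), so a rise of the size seen in Bdh1 lay outside it. With quantile normalization its sign turned, to -0.13.

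Oxct1, the transferase that lets a tissue use acetoacetate as fuel and that hepatocytes are known to lack, fell. It measured 1.53, 1.72 and 1.61 in control and -0.89, -0.41 and -0.47 in restricted mice, on a probe at chr15:4105196-4105255 (mm9). The control mice were nearly equal, no restricted mouse came near them, and the difference was -2.21 ± 0.19 (SE; limma adjusted p = 0.000538), a 4.62-fold lower signal. The fall passed in all 19 alternatives, between -2.50 and -1.99, though these were not all distinct. With slide as a block it was -2.50 (limma adjusted p = 0.00249), the same estimate as within slide 1 alone. Markers of macrophages fell at 12 of 12, of neutrophils at 5 of 8 and of stellate cells and fibroblasts at 6 of 10. These falls, with summed signals given above, went the same way as those of Oxct1 and Acsm2, the other member that fell. In restricted mouse 1, on slide 1, the neutrophil sum was 25.9, near the 30 of control mouse 3. Oxct1 in that restricted mouse was -0.89, against 1.53 to 1.72 in control mice. The part of these markers in the lower signal of either gene was not tested.

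**Figure D3:**
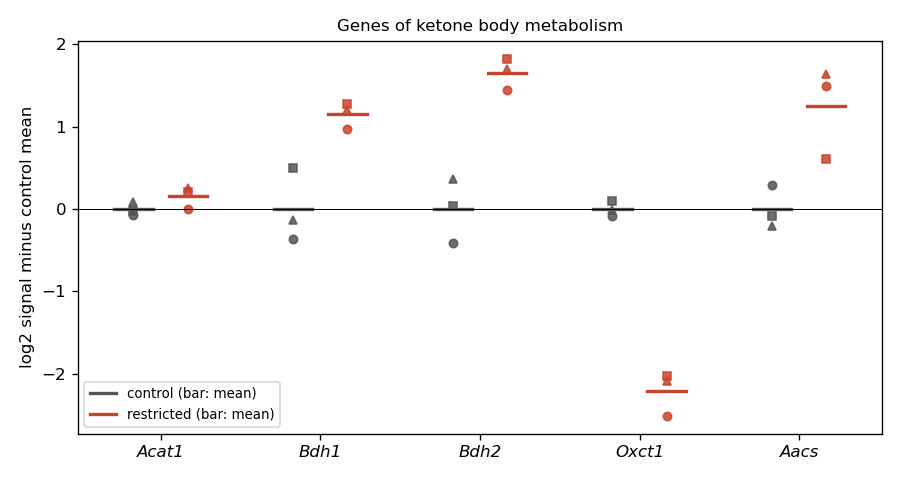
Genes of ketone body metabolism in each mouse, as log2 signal minus the mean of the control mice, with circles, squares and triangles for mice 1, 2 and 3 of each diet and bars for the mean of 3 mice. The restricted mice lie above the control mice for Bdh1, Bdh2 and Aacs, overlap with them for Acat1, and lie below them for Oxct1.

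Genes around the set were read from lists of related functions. Bdh2, a cytosolic dehydrogenase linked to ketone bodies, rose by 1.65 ± 0.24 (SE; limma adjusted p = 0.00324). Aacs, which returns acetoacetate to lipid synthesis in the cytosol, rose by 1.25 (limma adjusted p = 0.0234). The monocarboxylate transporters Slc16a1 and Slc16a7, which move ketone bodies across the cell membrane, differed by 0.36 and 0.32 (limma adjusted p = 0.163 and 0.311).

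Of 8 genes that handle carnitine and malonyl-CoA, 7 rose, with a median of 1.16. Acacb, the acetyl-CoA carboxylase that makes malonyl-CoA at the mitochondrion, rose most, by 2.63 ± 0.25 (limma adjusted p = 0.000693), beside the rise of Mlycd, which removes malonyl-CoA. Bbox1 and Aldh9a1, which act in carnitine synthesis, rose by 1.70 and 1.24 (limma adjusted p = 0.00402 and 0.0029), and Crat, the carnitine acetyltransferase, by 1.53 (limma adjusted p = 0.00991). The carnitine carrier Slc25a20 rose by 1.08 (limma adjusted p = 0.0274), and Tmlhe, the first enzyme of carnitine synthesis, differed by 0.76 (limma adjusted p = 0.134).

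Other mitochondrial fatty acid enzymes, a list that also took in the peroxisomal Nudt7 and Decr2, rose at 12 of 15 measured genes, with a median of 1.39. Hibch, of valine breakdown, rose by 1.95 (limma adjusted p = 0.000407), Nudt7, which hydrolyses coenzyme A, by 2.67 (limma adjusted p = 0.000704), Echdc3 by 1.39 (limma adjusted p = 0.00149) and Hsd17b10 by 1.39 (limma adjusted p = 0.00163). Acsf2 differed by 0.19 (limma adjusted p = 0.587) and Echdc2 by 0.70 (limma adjusted p = 0.0593). As with Acsm2 among the activating enzymes, 1 synthetase fell here: Acss1, which activates acetate in mitochondria, by a difference of -2.74 (limma adjusted p = 0.00438). Fatty acid uptake and binding genes rose at 5 of 9, among them the fatty acid translocase Cd36 by 2.72 (limma adjusted p = 0.00215), Fabp2 by 1.44 (limma adjusted p = 0.00843), Got2 by 1.10 (limma adjusted p = 0.00369) and Slc27a2, saturated on the restricted diet, by at least 2.38-fold (limma adjusted p = 0.00618). Fabp4 differed by -0.10 (limma adjusted p = 0.926), and Dbi was saturated on 5 of 6 arrays (limma adjusted p = 0.259).

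Among the regulators, 3 of 12 rose and none fell, a share of the list nearer to the background of 14.6% than that of the enzymes. Ppara itself measured 3.70, 3.50 and 4.49 in control and 5.44, 5.53 and 5.68 in restricted mice, higher without overlap by 1.65 (limma adjusted p = 0.00558). Sirt3, a mitochondrial deacetylase, rose by 1.36 (limma adjusted p = 0.00887) and Esrra, an estrogen-related receptor, by 1.14 (limma adjusted p = 0.0368). The coactivator genes Ppargc1a and Ncoa1 differed by -0.08 and -0.12 (limma adjusted p = 0.896 and 0.621). Of 15 PPAR-alpha target genes outside mitochondrial oxidation 8 rose and 1 fell. The peroxisomal enzymes Ehhadh and Acaa1b rose by 4.43 and 4.16 (limma adjusted p = 0.00124 and 0.000584). The omega-hydroxylases Cyp4a31 and Cyp4a10, saturated on the restricted diet, were at least 21.5-fold and at least 20.1-fold higher (limma adjusted p = 0.000584 and 0.000822). Plin2 and Fgf21, also known targets, differed by 0.29 and -0.93 (limma adjusted p = 0.699 and 0.367), and Cidea fell, by a difference of -3.15 (limma adjusted p = 0.0185), with 4 of 6 arrays well above background.

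**Figure D4:**
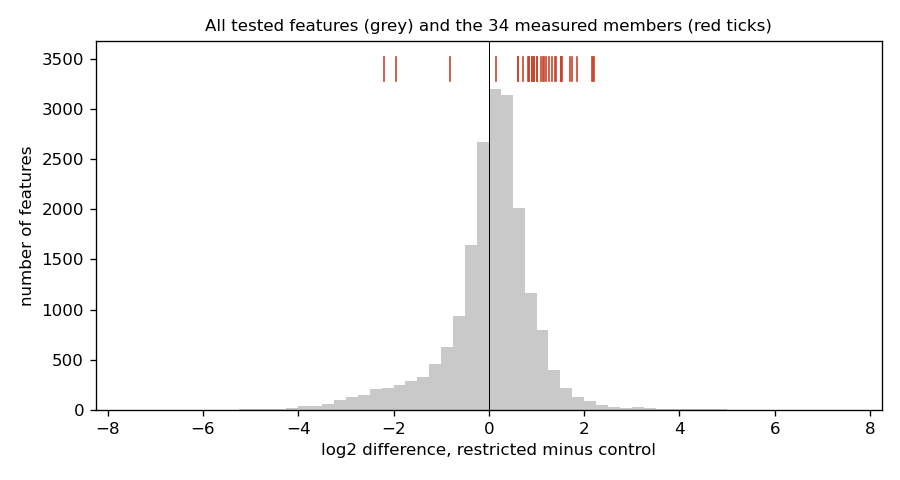
Distribution of the difference in log2 signal, restricted minus control, over all 19616 features (grey bars, 0.25 wide) with the 34 measured members of the set as red ticks above. The median of all features lies at 0.12 and that of the members at 1.11, and 3 members, Oxct1, Acsm2 and Acsl3, lie below 0.

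The members that rose ranged from 0.82 to 2.21, where the call itself tends to keep out small differences. Medians were alike for the steps of the cycle proper, 1.25 for entry, 1.02 for dehydrogenases, 1.19 for later steps and 1.32 for electron transfer. The 3 ketone body genes of the set went apart, at 1.15 for Bdh1, 0.16 for Acat1 and -2.21 for Oxct1. Their median, 0.16, is the value of Acat1 alone. Differences between steps were not tested. For 9 members, 2 or more probes were above background. All probes of each had the same sign, and the largest gap between probes of a gene was 0.24, but for Cpt1b and Cpt2 the call differed between probes. The spread between mice was smaller on the restricted diet for 22 of 34 members, or 64.7%, against 56.7% of all features.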

How the data were processed

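Single-colour Agilent arrays (design 026655, probe positions in mm9) were used as deposited. Per the file headers, the intensity values came from Feature Extraction 10.7.3.1 (9.3.2.1 per the submitters' processing notes), which had subtracted the background. The values were log2 of that processed signal minus the array's 75th percentile. A deposited table of linear intensity values equalled the processed signal within 0.1% for 99.67 to 99.77% of probes. Control spots and outlier spots (127 to 251 per array) were left out. A background filter, which asked that either diet exceed background on each of its measured arrays, kept 24234 of 39429 probes. The brightest of these stood for its gene name, in 19616 features. Per array, 23527 to 25815 probes were well above background, and the 3 arrays per diet limit the precision. Names were updated by RefSeq accession for 26055 probes, of which 3358 changed.

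Diets were compared with limma 3.58.1 in R 4.3.3 (lmFit, eBayes), with Benjamini-Hochberg adjustment over all features. The fit was tested on simulated data. Every member was named, and of each related list up to 4 called genes of smallest p and up to 2 of largest p; some genes of the related lists are not reported here. Mouse values were given for up to 3 genes of smallest p per step, for genes not called or lower, and for probes that differed in call; those of Acsl5, Acad11, Hadha, Echs1 and Ppara and the ranges of Acadl and Hadh were added after they were seen. Members, lists and motifs were chosen with earlier results of these data known. The comparison of the slide 2 mice was chosen after seeing the data and repeats the fit without restricted mouse 1, so the alternatives are not all distinct. Alternatives covered background correction, scaling, filters, slide, probes, moderation, threshold and leaving out each mouse.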

Additional observations from a re-analysis of the deposited data

How the results depend on the processing

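The 27 members that rose numbered 15 with slide as a block, 6 within slide 1 alone, 17 at an adjusted p under 0.01, and 20 to 27 when 1 mouse was left out in turn. All 15 and all 6 were among the 27. The 2 that fell became 1 with normexp background correction and 1 with probes well above background on all arrays, where Acsm2 was lost, and stayed at 2 with each mouse left out. The median difference over members, 1.11, was 0.87 with quantile normalization, 1.20 with median scaling, 1.01 with slide as a block, 1.01 within slide 1 alone, and 1.04 to 1.13 with a mouse left out; the median over all features was 0.07 and 0.21 under the first 2 of these. The 5386 features called became 8368 with array weights, 3013 with slide as a block, 2254 within slide 1 alone, 2533 at an adjusted p under 0.01, and 3344 (without control mouse 2) to 5818 (without control mouse 3) with a mouse left out, with 3394 without restricted mouse 2. The share of calls that were higher, 53.2%, was 37.2% with slide as a block, 29.1% within slide 1 alone and 61.2% with median scaling. Acat1 reversed with quantile normalization, to -0.13. The causes were not tested. With mouse number as a replicate block, 28 members rose and 6623 features passed; same-numbered mice correlated at 0.38, 0.00 and 0.48 in their deviations, and control mouse 2 correlated best with restricted mouse 1 (0.12), so the numbers were not taken as a pairing. Saturation limited Acaa2, Etfb, Acadvl and Acsl1, and low signal limited Acsm2, Cpt1b and Acsl6.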

Other observations

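The citric acid cycle, which takes up the acetyl-CoA that beta-oxidation releases, was read as a further list. Of its 17 genes 13 rose on the restricted diet and none fell (limma, adjusted p under 0.05), with differences from 0.58 to 1.88 and a median of 1.09. Sdhb, the iron-sulfur subunit of succinate dehydrogenase, rose by 1.60 ± 0.18 (SE; adjusted p = 0.00121), Sdha by 1.28 ± 0.19 (adjusted p = 0.00339) and Dlst by 1.09 ± 0.18 (adjusted p = 0.00571). Cs, the citrate synthase at the entry of the cycle, differed by 0.58 (adjusted p = 0.0736), Fh1 by 0.60 (adjusted p = 0.105) and Dld by 0.85 (adjusted p = 0.192). The list's median was close to the 1.11 of the oxidation genes, and the difference between the lists was not tested.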
